A study of Mus musculus with 8 samples.

Results

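Galnt16 and its paralogs, the polypeptide GalNAc transferases, were examined in mouse embryonic fibroblasts (MEFs) with and without Lats2. The members were taken by gene name from the array annotation, which writes Galnt16 under its older name Galntl1, and comprised Galnt16, Galnt1, Galnt2, Galnt3, Galnt4, Galnt6, Galnt7, Galnt10, Galnt11 and Galnt12. These 10 genes, of 27745 gene names on the array, had 18 of its 41174 gene probes. Galnt16 was chosen on its ratio between genotypes in these same arrays, so its own ratio is given as a description and with no test. The MEFs came from Lats2-/- and Lats2+/+ embryos, both labelled with the strain C57BL/6J, and were grown in DMEM with fetal bovine serum without any treatment. Lats2 encodes a kinase of the Hippo pathway. The study's design names 3 litters without numbering them, and the numbers 112, 116 and 121 in the sample titles and clone names, each shared by 1 Lats2-/- and 1 Lats2+/+ clone, were read as these litters. Each gave 1 RNA extract per genotype, and both extracts of a litter were hybridised to the same Agilent arrays with Cy3 and Cy5 swapped, on 2 arrays for litters 112 and 116 and on 4 arrays for litter 121. The litter was therefore the replicate (n = 3), and the spread between arrays of a litter is technical.

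Polypeptide GalNAc transferases sit in the Golgi and transfer N-acetylgalactosamine (GalNAc) from UDP-GalNAc to serine or threonine of proteins, which is the first step of mucin-type O-glycosylation. Some family members act on unmodified peptides, and others prefer peptides that already carry a GalNAc nearby. The sugar is then extended by other enzymes, of which the core 1 galactosyltransferase C1galt1 and its chaperone C1galt1c1 build the commonest core.

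RefSeq (GRCm38.p6) lists 3 closely spaced transcription starts for Galnt16 on the plus strand of chromosome 12, and the window that reaches from 250 bases before to 50 bases after the second of them is printed because it holds the letters of both motifs searched. Capitals mark GGAATG, the TEAD motif, here on the reverse strand as CATTCC, and TGANTCA, the AP-1 motif. TEAD proteins are the DNA-binding partners of YAP and TAZ, the targets of Lats kinases, and AP-1 factors often bind beside them.

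Galnt16, chr12:80518552-80518851, plus strand: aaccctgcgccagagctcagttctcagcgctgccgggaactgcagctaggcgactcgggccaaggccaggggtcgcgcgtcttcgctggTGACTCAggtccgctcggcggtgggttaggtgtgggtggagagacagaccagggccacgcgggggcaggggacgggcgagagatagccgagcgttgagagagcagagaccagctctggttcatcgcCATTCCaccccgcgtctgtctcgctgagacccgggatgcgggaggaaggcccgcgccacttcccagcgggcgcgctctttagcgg

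This window is 68.0% G and C and holds 30 CpG dinucleotides, against medians of 52.7% and 7 over all 32851 windows of the same length. The window of the third start overlaps it and holds the same TEAD letters, and that of the first holds neither motif. The TEAD letters were found, on either strand, in 14.7% of all windows and the AP-1 letters in 7.81%. Of the other members, Galnt3, Galnt6, Galnt7, Galnt10 and Galnt11 have windows in the table, and among them Galnt6 (in 1 of 2 windows) and Galnt10 hold the TEAD letters once. These matches are a description of the letters and not of bound sites.

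The arrays were of similar quality. The median green intensity of an array ranged from 60.9 to 68.2 and the median red intensity from 83.1 to 94.2. Per array, 53.5% to 60.3% of probes exceeded background for Lats2-/- and 52.9% to 61.3% for Lats2+/+. Lats2 itself was read by 4 probes. The probe furthest upstream was lower in every extract labelled Lats2-/-, at -1.33 (litter 112), -1.05 (litter 116) and -0.56 (litter 121) as a log2 ratio. The remaining 3 probes were below 0 in litters 112 and 116 but had ratios of 0.80 to 1.17 in litter 121. Which exons were deleted is not given in the sources used here, so none of the 4 probes can check the labels. In litter 121 the probes went in opposite directions, and its labels were taken as given. All 10 fibroblast markers (among them Col1a1, Vim and Pdgfrb) were well above background in all 6 extracts, although Pdgfra had a log2 signal of only 6.30 in the Lats2-/- extract of litter 121 against 11.26 in its wild-type littermate. Epcam, Pecam1, Ptprc, Sox2 and Myod1, which mark epithelium, endothelium, blood, neural and muscle cells, were above background in 0 extracts, although of 6 markers per list 4 epithelial, 2 endothelial, 3 blood, 2 neural and 2 muscle markers were so in at least 1 extract. Of all markers, Prrx1, a mesenchymal homeobox gene, and Cd14, a receptor for bacterial lipopolysaccharide, had an unadjusted p under 0.05, with mean log2 ratios of -0.67 ± 0.14 and -0.99 ± 0.57 (limma adjusted p = 0.711 for both). Litters 116 and 121 differed in these markers between their own extracts. In litter 121, 9 of the 10 fibroblast markers were lower in the Lats2-/- extract. In litter 116, 8 of the 10 were higher there, with a median log2 ratio of 1.36, and the Lats2+/+ extract had the lowest Col1a1 signal of the 6 extracts (13.97 against 16.72 in its Lats2-/- littermate). The actin genes Acta1 and Actc1 were also lowest in that wild-type extract, at 8.56 and 10.34 against 12.05 and 13.71 in the Lats2-/- extract of litter 116. Other markers were highest there. The epithelial markers Krt8 and Krt18 were well above background in that extract alone (6.54 and 6.41), and Cd14 (10.81) and Vim (16.37) peaked in it. The part of these differences in the values below was not tested. Fewer expressing cells and less RNA per cell cannot be told apart in these bulk extracts.

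Galnt16 was lower in the Lats2-/- extract of every litter. Its 1 probe (A_52_P94830, NM_001081421, chr12:81522669-81522727 on the plus strand in mm8) was well above background on all 8 arrays in both genotypes. In litter 112 its log2 signal was 7.95 in the Lats2+/+ extract and 6.65 in the Lats2-/- extract. In litter 116 these signals were 10.66 and 8.92, and in litter 121 they were 7.93 and 6.55. Litter 116 was the high one in both genotypes. Its Lats2-/- extract lay above the Lats2+/+ extracts of the other litters, so the genotypes overlapped across litters although not within any. The wild-type extract of litter 116 also had the lowest Col1a1, Acta1 and Actc1 signals and the highest Krt8, Krt18, Cd14 and Vim signals. The log2 ratios of Lats2-/- over Lats2+/+ were -1.30, -1.74 and -1.38, and their mean was -1.47 ± 0.23 (SD, n = 3), a level 2.78-fold lower, or 36.0% of the wild type. All 8 arrays had a ratio below 0, from -1.24 to -1.85, in both dye orientations. The mean was -1.52 over slide 1, which held litters 112 and 116, and -1.38 on slide 2, which held litter 121. Without litter 116 it was -1.34.

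**Figure D1:**
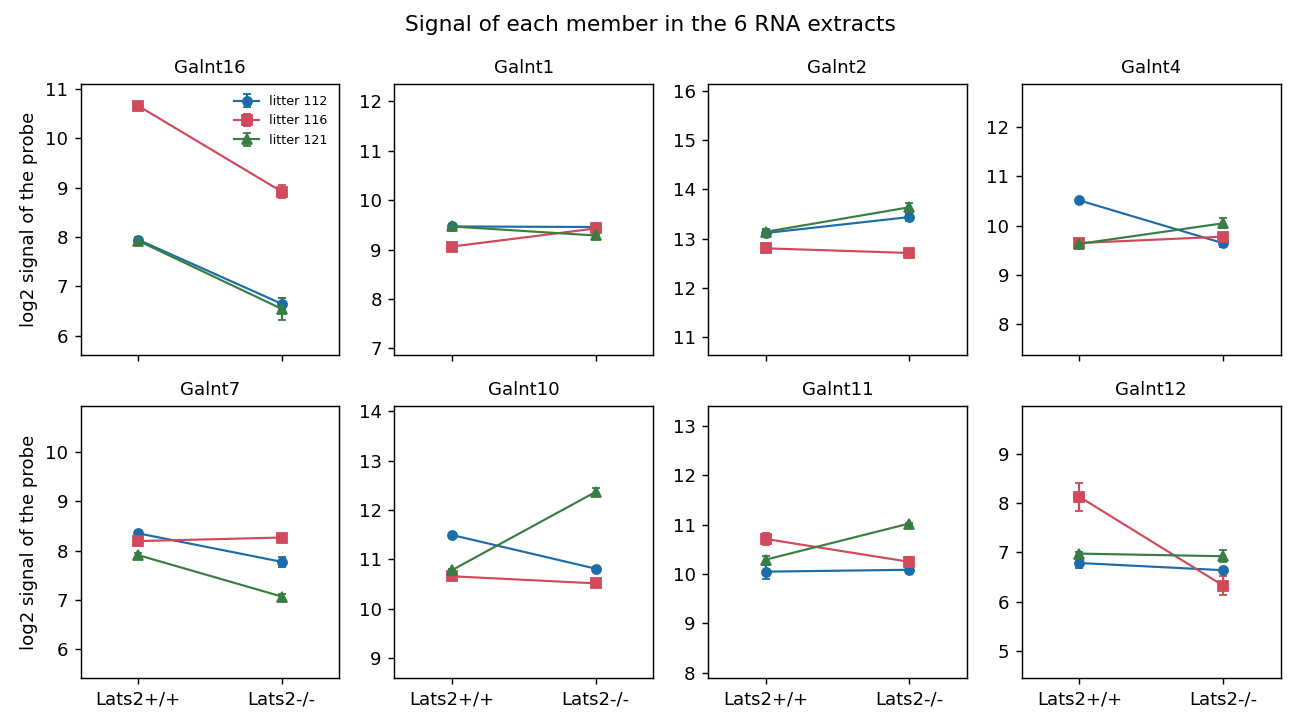
Log2 signal of the brightest kept probe of 8 members in the 6 extracts, with each line joining the Lats2+/+ and Lats2-/- extracts of 1 litter and bars giving the SD over its arrays; the axes of all panels span the same range of log2 units. All 3 lines of Galnt16 fall from Lats2+/+ to Lats2-/-, with litter 116 above the other litters in both genotypes.

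A fall of at least 2-fold in each of the 3 litters was seen for 7 of the 22642 kept probes (0.0309%), and the Galnt16 probe was one of them. A rise of at least 2-fold in each litter was seen for 48. The number of such falls depended on the scaling, at 10 with median centring, 11 with a normexp offset of 16 and 41 with processed signals. With the offset of 50 used here, the other 6 were 2 probes of Cspg4 and 1 each of Il1rl1, Foxc2, Gpnmb and Pop1. Galnt16 had one of the smaller mean changes among them, since Cspg4 changed by -3.83 ± 1.48 and Pop1 by -1.19 ± 0.12. Its SD of 0.23 over litters was close to the median SD over all kept probes, 0.25.

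The size of the Galnt16 change, but not its sign, depended on how dim signals were scaled. With a normexp offset of 16 in place of 50 the mean was -1.79, and the signals as processed by Feature Extraction gave -2.40 ± 0.41, a level 5.27-fold lower. The order of the litters changed too: litter 116 had the largest fall with the offset of 50 and the smallest with the processed signals, where the litter ratios were -2.55, -1.94 and -2.70. Every litter was below 0 under these scalings, median centring and the deposited value table.

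**Figure D2:**
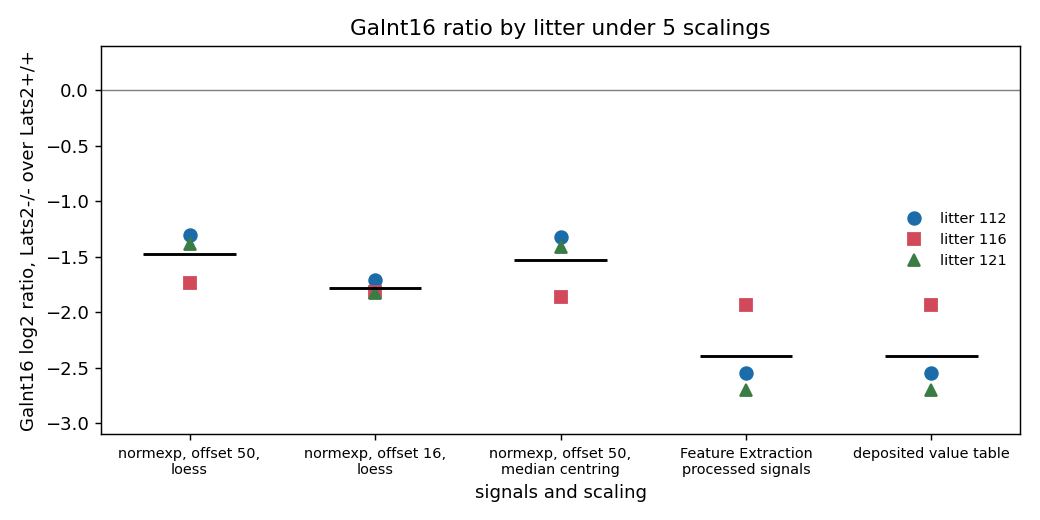
Galnt16 log2 ratio (Lats2-/- over Lats2+/+) in each of the 3 litters under 5 scalings of the signals, with a black line at the mean. All points lie below 0, and the mean ranges from -1.47 to -2.40.

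Set beside Galnt16, the 7 paralogs with a kept probe did not share its pattern. By the brightest kept probe of each gene, their signs differed between litters, except for Galnt12. The second kept Galnt7 probe was below 0 in all 3 litters. None of the 7 passed limma's moderated test after Benjamini-Hochberg adjustment over all kept probes (adjusted p from 0.735 to 0.952), a threshold that 0 of 22642 probes passed (0%), and none had an unadjusted p under 0.05, which 1549 probes had (6.84%). Litter by litter the Galnt16 ratio was below that of the paralog in 20 of 21 comparisons, with Galnt12 in litter 116 as the exception, a description that follows from how Galnt16 was chosen. By mean ratio, 4 of the 7 were above 0 and 3 below, and the median was 0.06 against 0.01 over all kept probes. By the brightest probe only Galnt12 was lower in all 3 litters, as were 14.8% of kept probes, and 0 of the 7 were higher in all 3. The Galnt12 ratio in litter 121 was -0.05, with single arrays on both sides of 0. A single sign in all litters was seen for 29.7% of kept probes. The median SD over litters was 0.60 for these 7 genes against 0.25 for all kept probes. Every one of the 8 genes, Galnt16 included, had overlapping genotypes once the 3 litters were placed side by side, and 6.13% of kept probes had genotypes that did not overlap over the 6 extracts.

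**Figure D3:**
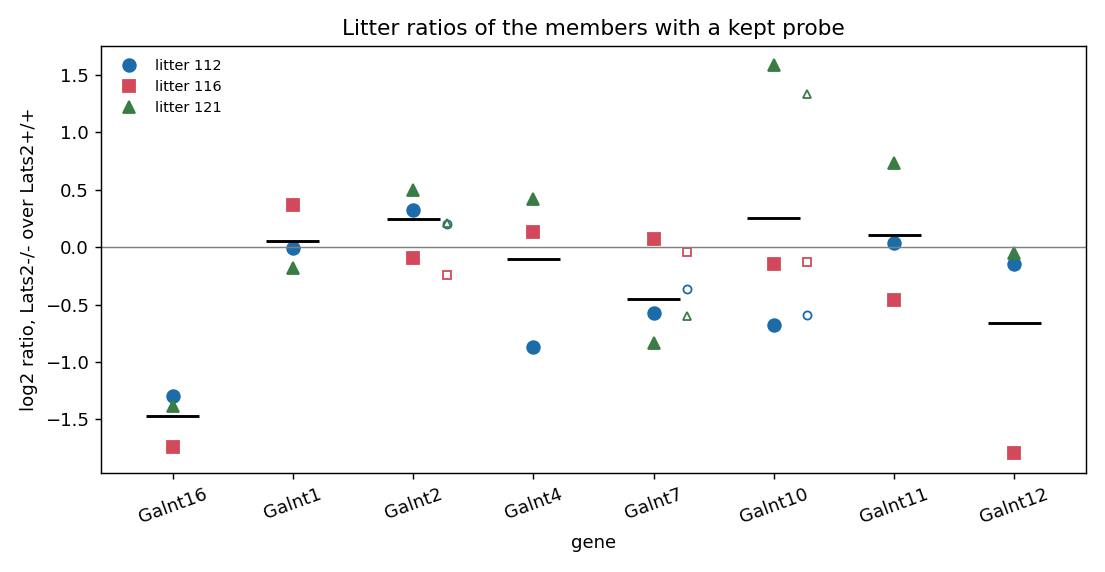
Log2 ratio (Lats2-/- over Lats2+/+) of each litter for the 8 members with a kept probe, with filled symbols for the brightest kept probe, open symbols for a second kept probe and a black line at the mean. Galnt16 lies below -1 in all 3 litters, whereas Galnt10 runs from -0.68 in litter 112 to 1.58 in litter 121.

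Galnt1 and Galnt2 are broadly expressed and act on unmodified peptides. The log2 signals of Galnt1 in litters 112, 116 and 121 were 9.47, 9.06 and 9.47 in the Lats2+/+ extracts and 9.46, 9.43 and 9.29 in the Lats2-/- extracts. Its ratios were -0.01, 0.37 and -0.18, with a mean of 0.06 ± 0.28, so that no litter differed by as much as 2-fold. The brighter of the 2 Galnt2 probes (chr8:127231593-127231652) read 13.12, 12.81 and 13.14 in the Lats2+/+ extracts and 13.44, 12.71 and 13.64 in the Lats2-/- extracts. The Galnt2 ratios were 0.32, -0.09 and 0.50 (mean 0.24 ± 0.30, limma adjusted p = 0.769), higher in litters 112 and 121 and slightly lower in litter 116. Without litter 121 the mean of the brighter probe was 0.11, and without litter 116 it was 0.41. The second Galnt2 probe had the same signs and a smaller mean of 0.06 ± 0.26.

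Galnt11, which is known to glycosylate Notch1, moved in opposite directions between litters. Its log2 signals were 10.05, 10.71 and 10.29 in the Lats2+/+ extracts and 10.09, 10.25 and 11.02 in the Lats2-/- extracts, which gave ratios of 0.04, -0.46 and 0.73 and a mean of 0.10 ± 0.60. The high extract was the Lats2-/- one of litter 121. A second Galnt11 probe was too dim to be kept.

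Galnt3, known for its action on the hormone FGF23, and its near relative Galnt6 had no kept probe. Both Galnt3 probes were well above background only on the 4 Lats2-/- arrays of litter 121 and on 0 Lats2+/+ arrays. The epithelial marker Cdh1 and the endothelial marker Kdr were likewise well above background in that extract alone. Their log2 signals were 7.16 and 6.61 there, against 6.07 and 6.11 in the Lats2+/+ extract of litter 121. Whether this bears on Galnt3 was not tested. In litter 121 the Lats2-/- level of Galnt3 was at least 1.39-fold higher by one probe and at least 1.48-fold higher by the other, set against the lowest signal well above background on each array. In the other litters neither genotype was well above background for Galnt3. One Galnt6 probe was well above background on 2 Lats2-/- arrays and 1 Lats2+/+ array and the other on 0, so no extract gave a Galnt6 level.

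Galnt4, Galnt7, Galnt10 and Galnt12 prefer peptides that already carry GalNAc. Galnt7 was lower in the Lats2-/- extracts of litters 112 and 121. Its brighter probe (chr8:60416875-60416934) read 8.35, 8.20 and 7.91 in the Lats2+/+ extracts and 7.77, 8.27 and 7.07 in the Lats2-/- extracts. The Galnt7 ratios were -0.58, 0.07 and -0.84 (mean -0.45 ± 0.47, limma adjusted p = 0.735). Its second probe gave -0.37, -0.04 and -0.60 with a mean of -0.34 ± 0.28, so that litter 116 was near 0 by both probes and the other litters were below it. Without litter 116 the mean of the brighter probe was -0.71 (limma unadjusted p = 0.0189, adjusted p = 0.834), and without litter 121 it was -0.25. From the processed signals it was -0.70 (limma adjusted p = 0.738).

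Galnt12 was lower mainly in litter 116. Its probe (chr4:47143743-47143802) read 6.78, 8.12 and 6.97 in the Lats2+/+ extracts and 6.64, 6.33 and 6.92 in the Lats2-/- extracts. The Galnt12 ratios were -0.15, -1.80 and -0.05 (mean -0.67 ± 0.98, limma adjusted p = 0.765), and without litter 116 the mean was -0.10. As for Galnt16, the size depended on the scaling, with a mean of -0.94 at offset 16 and -1.58 from the processed signals, where the limma adjusted p was 0.770 and 0.763. The Lats2-/- extract of litter 116 was well above background on 1 of its 2 arrays, which leaves the size of that fall poorly fixed. As with Galnt16, the wild-type extract of litter 116 had the highest signal of the 6.

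Galnt10 had the widest differences between litters among the 8 members with a kept probe. Its brightest probe (chr11:57602156-57602215) read 11.50, 10.66 and 10.78 in the Lats2+/+ extracts and 10.81, 10.52 and 12.37 in the Lats2-/- extracts. The Galnt10 ratios were -0.68, -0.14 and 1.58 (mean 0.25 ± 1.18), that is, below 0 in litters 112 and 116 and well above it in litter 121. A neighbouring kept probe (chr11:57601936-57601995) gave -0.59, -0.13 and 1.34, in the same order. A further Galnt10 probe was dim, and in litter 121 it was measured in the Lats2-/- extract alone, at least 1.35-fold higher. The mean without litter 121 was -0.41, so the sign of the mean rested on that litter.

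Galnt4 read 10.51, 9.65 and 9.63 in the Lats2+/+ extracts and 9.64, 9.78 and 10.05 in the Lats2-/- extracts, and its ratios of -0.87, 0.13 and 0.42 averaged -0.11 ± 0.67. It was lower in litter 112 and higher in the other litters. A second, dim Galnt4 probe was not kept. Galnt4 lies within the span of Poc1b in RefSeq, and the spans of Galnt1, Galnt6, Galnt7, Galnt10 and Galnt12 also overlap those of other listed genes. Whether the probes read transcripts of those genes as well was not tested.

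Across the 6 extracts, the log2 signals that ran closest to those of Galnt16 among the 14790 genes with a kept probe were those of Hdac9 (Pearson r = 0.991), 9530058B02Rik (0.980), A830082K12Rik (0.980), Arrdc3 (0.977) and Scye1 (0.977). Hdac9, a class IIa histone deacetylase, was well above background on all 8 arrays in Lats2+/+ but on 0 arrays in the Lats2-/- extracts of litters 112 and 121, so its coefficient rests partly on signals at background. Its log2 ratio in litter 116, where both extracts were measured, was -1.25. A830082K12Rik was likewise above background on 1 of the 4 Lats2-/- arrays of litter 121. Like Galnt16, each of these genes had its highest signal of either genotype in litter 116, so the coefficients follow that litter as well as genotype. Their mean log2 ratios ran from -0.83 (Hdac9) to -0.23 (Scye1). With 6 extracts that share arrays and litters these coefficients are a description, and 168 genes reached 0.90. Among the members the coefficient was 0.67 for Galnt7, 0.64 for Galnt12, 0.08 for Galnt11 and -0.24 for Galnt4, and it was -0.59 for Galnt10, -0.62 for Galnt1 and -0.88 for Galnt2.

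The further family members and the enzymes around them were counted in the same fit. Of the 9 other genes of the transferase family on the array (Galnt17 being listed as Wbscr17 and Galnt18 as Galntl4), 5 had a kept probe, and all 5 had mixed signs over litters. Galnt14, grouped with Galnt16 and Galnt2 in one branch of the family, had ratios of 0.11 in litter 112 and -0.50 in litter 116. In litter 121 it was just over 2-fold lower (mean over the litters -0.46 ± 0.56, limma adjusted p = 0.754). In litter 112 neither genotype was well above background for Galnt14, so its mixed sign rests on a litter where it was not measured. In litters 116 and 121, where both extracts were well above background, Galnt14 was lower in the Lats2-/- extract. Galnt17 had ratios of 0.48, 1.86 and -1.90 (mean 0.15 ± 1.90), a wider spread than that of any member. Galnt14 and Galnt17 were named after their values were seen. Over all kept probes 15.0% were higher in all 3 litters, against which the counts of the lists stand. Of the enzymes that extend or cap the O-linked GalNAc, 10 of 18 genes had a kept probe, 1 was higher in all litters and 0 lower in all. C1galt1 had ratios of 0.56, -0.38 and -0.24 (mean -0.02 ± 0.50, limma adjusted p = 0.990), and C1galt1c1 had 0.14, -0.12 and 0.45 (mean 0.15 ± 0.29, limma adjusted p = 0.843). All 7 genes examined for UDP-GalNAc supply were kept, and 3 of them were higher in all litters: Uap1 (mean 0.21 ± 0.09), Slc35a2 (0.19 ± 0.14) and Gfpt2 (0.44 ± 0.41), named here after their values were seen. The Slc35a2 ratios were 0.35, 0.12 and 0.10 and those of Gfpt2 0.22, 0.91 and 0.19, so the sizes of these means leaned on litter 112 and litter 116. The supply list did not move together, since 4 of the 7 were lower in litter 121. Galk2 had the highest mean of the list, 0.73 ± 1.19, with ratios of 0.85, 1.85 and -0.52, and Gnpnat1 the lowest, -0.17 ± 0.39. Galk2 and Gnpnat1 were likewise named after their values were seen. Of 8 genes that start other kinds of O-linked chains, such as the O-GlcNAc transferase Ogt, 2 were higher in all litters and 0 lower, and of 7 kept genes for other GalNAc transfers 1 was higher and 0 lower. Not one gene of these 5 lists reached an unadjusted p under 0.05 or a 2-fold change of 1 sign in every litter.

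**Figure D4:**
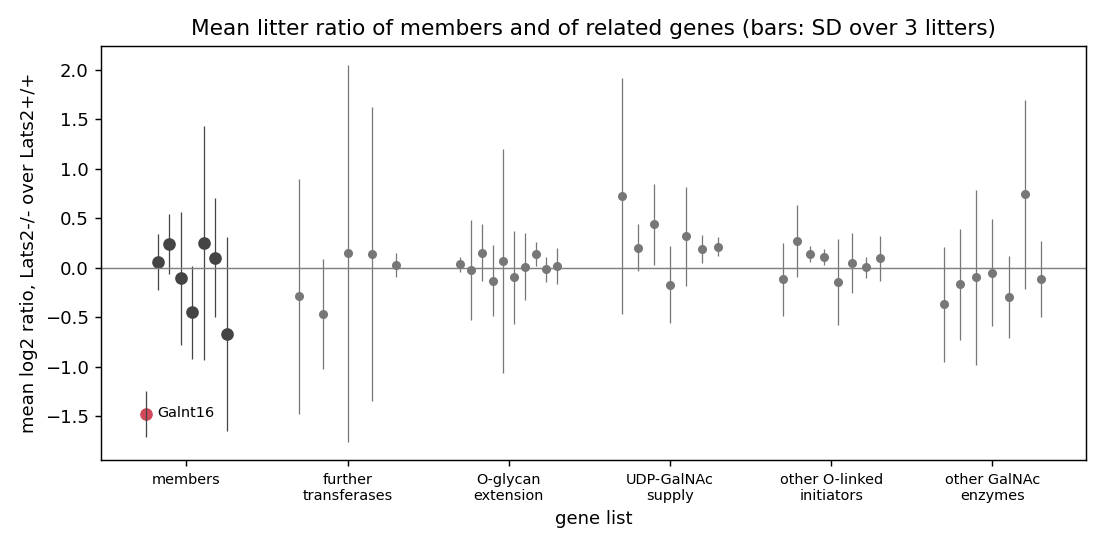
Mean log2 ratio (Lats2-/- over Lats2+/+) with bars for the SD over 3 litters, for the brightest kept probe of each member and of each gene in 5 lists of related genes. Galnt16, in red, lies at -1.47, and the means of the genes in the 5 other lists lie between -0.46 and 0.74.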

How the data were processed

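Per the labels, total RNA of the 6 extracts was labelled with Cy3 or Cy5 and hybridised in dye swaps to an Agilent whole mouse genome design (14868). The deposited scanner files, written by the authors with Feature Extraction (10.7.3.1 per the file headers, 10.5.1.1 in the submitters' processing notes), hold spot and background intensity values on a linear scale and log10 ratios of processed signals. The deposited value table holds log10 ratios that equalled those of the scanner files within 0.005 once turned to Lats2-/- over Lats2+/+. Its columns had a median of 0. Mean intensities were corrected with normexp (offset 50) in limma 3.58.1 (R 4.3.3), control and outlier spots were removed (860 outlier gene spots), and loess was applied within arrays. Log2 ratios were averaged over repeat spots and over the arrays of a litter. Log2 signals of extracts were taken after Aquantile. A probe was kept if well above background, on most arrays of an extract, in at least 2 extracts of a genotype. The 3 litter ratios were tested against 0 (lmFit and eBayes, two-sided, Benjamini-Hochberg over 22642 probes, threshold 0.05). A run on simulated data was required only to recover litter ratios and the signs of changes. No power of the test with 3 litters is claimed from it. The number of litters limits the precision. For a gene with several kept probes the brightest was used. Every member was named. Of the related lists, C1galt1 and C1galt1c1 were named, with any gene at an unadjusted p under 0.05 or changed at least 2-fold with 1 sign in every litter, and the 5 genes most like Galnt16 by Pearson r were named. Other genes in the text were named after their values were seen. The members and lists were chosen with earlier results of these data known. The genotypes were paired by the number that their clone names share, read as the litter, and both share every array. One gene was left out of the related lists and their counts and is not reported here.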

Additional observations from a re-analysis of the deposited data

How the results depend on the processing

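The 3 litters limit the precision of every ratio, and dim probes have ratios that depend on the offset. The mean Galnt16 log2 ratio was below 0 under every alternative that could move it; the t-test, the unpaired fit and averaging over probes cannot, since it has 1 probe and the same litter means. It was -1.79 with offset 16, and -2.40 both from processed signals and from the deposited table, against -1.47, and ranged from -1.56 to -1.34 when 1 litter was left out. None of the 7 paralogs passed the adjusted threshold under any of the 14 alternatives, although Galnt7 had an unadjusted limma p of 0.0162 with slide as a block, 0.0175 and 0.0330 in the 2 fits with litter as a block and 0.0189 without litter 116, and Galnt12 one of 0.0479 with litter as a block (adjusted p for these 5 from 0.161 to 0.834). Without the replicate block (extracts compared unpaired by litter) 0 probes passed. The methods' t-test found 71 probes at p under 0.05 with at least 2-fold change, 15 of them lower and none a paralog, and 0 after Benjamini-Hochberg adjustment. Probes past the threshold numbered 717 when the slide was a random block, 341 when the litter was, and 202 once the dye was added to the latter; these fits count arrays of the same extracts, and the count was 0 under every other alternative run. Paralogs lower in all litters numbered 2 with median centring (Galnt7 joined Galnt12), 0 among probes above background in all 6 extracts, and 1 to 3 when a litter was left out. Some signs of paralog means turned. With slide as a block Galnt1 was -0.00249 and Galnt4 0.0235. With 1 litter left out, Galnt1 ranged from -0.10 (without litter 116) to 0.18, Galnt4 from -0.37 to 0.27 (without litter 112), Galnt10 from -0.41 (without litter 121) to 0.72, and Galnt11 from -0.21 (without litter 121) to 0.39. Probes at least 2-fold lower in each litter numbered 7, against 11 with offset 16, 10 with median centring and 41 with processed signals.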
